A study of Saccharomyces cerevisiae with 6 samples.

Results

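The 9 genes described here make or take up the building blocks of the yeast membrane phospholipids, or control the genes that do: INO1 (YJL153C), CHO1 (YER026C), PSD1 (YNL169C), CHO2 (YGR157W), OPI3 (YJR073C), ITR1 (YDR497C), HNM1 (YGL077C), INO4 (YOL108C) and OPI1 (YHL020C). They were picked by name as the main genes of inositol and phospholipid synthesis, with earlier results of these data known. They are 9 of the 5560 genes in the deposited tables, and their own read counts and T>C conversions, in every library, are the data. All samples are cultures of Saccharomyces cerevisiae BY4741, a laboratory strain that is haploid and of mating type a. UPF3-KO is BY4741 upf3Δ, with 3 cultures, and WT is BY4741 itself, with 3 cultures, which the labels call biological triplicates. Upf3 acts in nonsense-mediated mRNA decay, the pathway that removes transcripts on which translation ends too early, and the series was set up to find targets of this pathway from changes in half-life. The deletion is the single genetic difference named in the labels, and the sources used here do not give whether its 3 cultures come from 1 clone or several.

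The method was SLAM-seq. Cells take up 4-thiouracil (4TU) into new RNA and are then moved off the label for the chase. Alkylated 4TU is read as T>C in sequenced reads. The T>C share of a gene's reads falls as old labelled molecules decay and new unlabelled ones replace them. Half-lives from this share take a gene's level as steady over the chase, while reads of some members changed. Each of the 6 cultures gave 7 libraries of mRNA 3′ ends. There was 1 library without label (DMSO), and there were 6 labelled libraries at mean chase times of 0, 1.11, 3.92, 7.85, 17.9 and 57.7, numbered here as chase points 1 to 6. The deposited times carry no unit and are taken to be minutes. The growth medium, its inositol and choline content and the 4TU dose are likewise not given in the sources used here.

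In yeast, inositol-3-phosphate made by Ino1 or inositol taken up by Itr1 feeds phosphatidylinositol, while Cho1, Psd1, Cho2 and Opi3 act in sequence from CDP-diacylglycerol through phosphatidylserine and phosphatidylethanolamine to phosphatidylcholine. Most of these genes carry an upstream element bound by the activator pair Ino2 and Ino4. The repressor Opi1 is held at the endoplasmic reticulum while phosphatidic acid is plentiful and moves into the nucleus to shut the genes off when inositol is supplied. INO1 is the gene with the widest known range of this control.

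The 42 libraries held 11045419 to 23761767 reads. UPF3 itself had 4.32, 5.40 and 6.18 normalised CPM (reads scaled to library size) over the labelled libraries of the UPF3-KO cultures and 24.1, 27.5 and 30.7 in the WT cultures. The 5 a-cell genes summed to 3753, 2453 and 2719 CPM in UPF3-KO and to 4970, 4017 and 3896 in WT, and the 3 alpha-cell genes to between 17.5 and 29.8 in UPF3-KO and between 8.77 and 13.2 in WT. Neither sum overlapped between the genotypes. STE3 made up most of the alpha-cell sum, and the alpha-factor genes reached at most 1.94 CPM in any culture; the part of these shifts in the results below was not tested. Of the 3 marker genes that BY4741 lacks, MET17 did not pass 0.052 CPM, LEU2 did not pass 1.09, and URA3 had 7.48 to 13.3. Cultures of the same replicate number deviated together in reads, with replicate 1 of both genotypes apart from replicates 2 and 3. The third chase library of UPF3-KO replicate 1 was the least like the rest of its culture (median correlation of 0.913 with its other libraries), with 0.916% multi-mapping reads. The library at chase point 1 of that culture followed, with 0.938. The 7 barcode names of UPF3-KO replicate 1 recurred in UPF3-KO replicate 2, and the 7 of UPF3-KO replicate 3 in WT replicate 1; which libraries were sequenced together is not stated.

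The genes lie apart in the genome (build R64, positions of the RefSeq gene table). INO1 is at chromosome X, 134332 to 135933, and OPI3 at chromosome X, 572315 to 572935. CHO1 is at chromosome V, 207644 to 208474, PSD1 at chromosome XIV, 316169 to 317671, and ITR1 at chromosome IV, 1443713 to 1445467, all on the minus strand like the first pair. CHO2 is on the plus strand of chromosome VII, 802440 to 805049, and HNM1 on its minus strand, 362225 to 363916. OPI1 is at chromosome VIII, 66242 to 67456, and INO4 at chromosome XV, 111431 to 111886, both on the minus strand. Reads were counted in windows of 559 to 756 bases at the 3′ ends, and the next gene downstream lies 190 to 397 bases away.

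Read depth on the members was uneven. Over the 42 libraries, INO1 had between 82 and 1909 reads per library, INO4 between 387 and 2199, and OPI1 between 287 and 2026. The other 6 members reached at least 5081 reads in their deepest library, and ITR1 reached 16163. Multi-mapping reads made up 0.0329% of the reads of ITR1 and 0.244% of those of OPI1, the lowest and the highest of the 9. Per kilobase of counting window, the labelled libraries averaged 739 CPM in UPF3-KO and 908 in WT for ITR1, the highest level of the 9. INO1 was lowest, at 50.2 CPM per kilobase in UPF3-KO and 26.4 in WT.

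**Figure D1:**
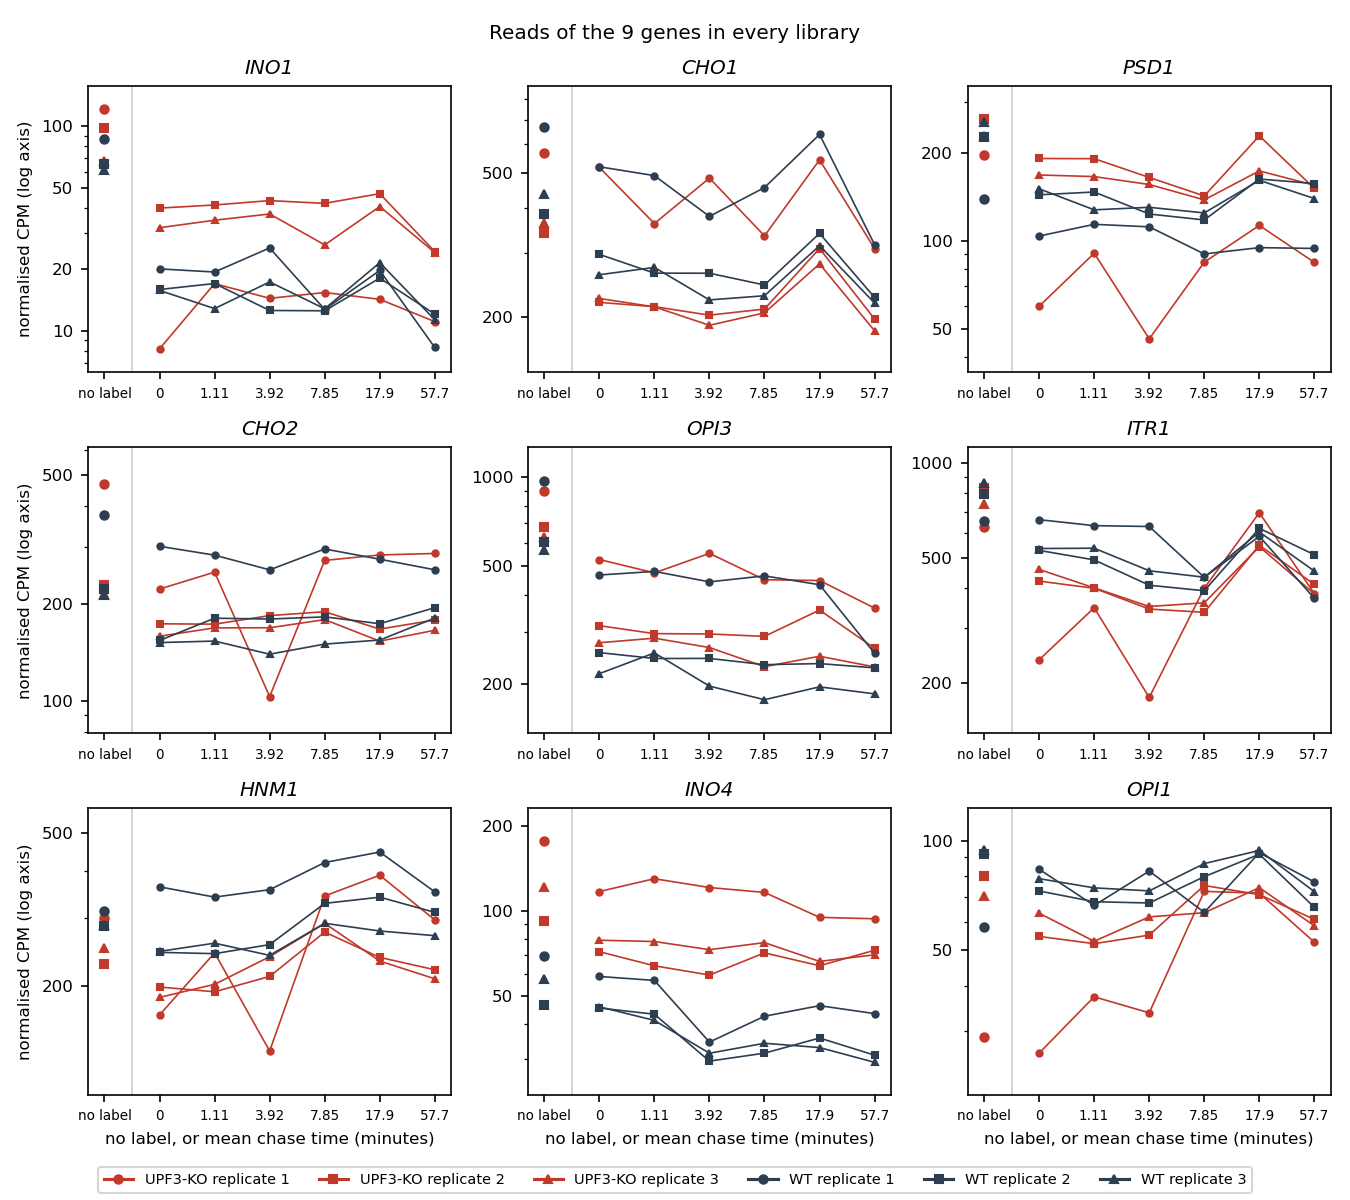
Normalised CPM (log axis) of the 9 genes in each of the 42 libraries, by culture, with the unlabelled library at the left and the 6 labelled libraries against mean chase time in minutes at the right (UPF3-KO red, WT dark blue, n = 3 cultures each). INO4 is higher in every UPF3-KO culture than in every WT culture at each point, and INO1 is lower in each labelled library than in the unlabelled library of its culture.

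INO4, the DNA-binding partner of Ino2 in the activator, was the single member whose reads differed between the genotypes by the test. Over the labelled libraries of the UPF3-KO cultures it had 107, 70.2 and 79.5 normalised CPM, against 46.2, 35.6 and 35.4 in the WT cultures. All 3 UPF3-KO cultures lay above all 3 WT cultures, with averages of 85.7 ± 19.4 and 39.1 ± 6.16 (SD, n = 3 each). In bulk cultures, a share of cells that express a gene and the RNA per cell cannot be told apart. Reads of INO4 were higher in UPF3-KO by a log2 change of 1.13 (SE 0.23, 2.19-fold; edgeR quasi-likelihood test, two-sided, Benjamini-Hochberg adjusted p = 0.0417). This is 1 of 9 members called, where 5.76% of the 5555 genes tested were called in either direction, 5.58% higher and 0.18% lower. The call was lost without any 1 of 5 cultures, UPF3-KO replicate 2 or 3 or WT replicate 1, 2 or 3 (adjusted p up to 0.24, log2 change between 0.94 and 1.27 over all 6 leave-one-out fits), and with size factors in place of TMM scaling (adjusted p = 0.0855). With the replicate number as a block, edgeR gave 1.12 (SE 0.10) and an adjusted p of 0.00016, in a fit that called 27.5% of all genes.

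The same difference in INO4 stood at every point of the series. In the unlabelled libraries the UPF3-KO cultures had 178, 92.3 and 121 normalised CPM, against 69.6, 46.4 and 57.6 in the WT cultures. At the sixth chase point the UPF3-KO cultures had 94.0, 72.7 and 70.1 and the WT cultures 43.5, 31.0 and 29.2. The groups did not overlap at any of the 7 points, which held in this direction for 4.39% of all genes. In the unlabelled libraries alone, edgeR gave a log2 change of 1.21 (SE 0.28) and an adjusted p of 0.0762. There 0 of the 9 members passed edgeR's threshold, and 1 (INO4) had an unadjusted p under 0.05, as did 12.3% of all genes. DESeq2 called 1 (INO4, adjusted p = 0.0177), in a fit that called 367 of 5559 genes. Over all 5509 genes of that comparison 3.23% were called higher and 0.0726% lower. With the replicate block, INO4 was called there too (log2 1.19, adjusted p = 0.000122, with 15.4% of all genes called). Its counting window of 691 bases is longer than the 456 bases of the gene.

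INO1, the inositol-3-phosphate synthase that makes the first intermediate of inositol synthesis, split the UPF3-KO cultures. Over the labelled libraries it had 13.0, 41.5 and 35.1 normalised CPM in UPF3-KO and 17.3, 14.6 and 15.2 in WT. In these sums UPF3-KO replicates 2 and 3 lay above all WT cultures and UPF3-KO replicate 1 below them all. At single chase points UPF3-KO replicate 1 was below all WT cultures at points 1 and 5. It lay within their range at points 2, 3 and 6 and above them at point 4. The log2 change was 0.93 (SE 0.42, edgeR adjusted p = 0.378). Without UPF3-KO replicate 1 it was 1.28 (SE 0.16, adjusted p = 0.00874), and between replicates 2 and 3 of both genotypes 1.38 (SE 0.11, adjusted p = 0.000436, in a fit that called 27.5% of all genes). In the unlabelled libraries INO1 had 121, 98.2 and 67.9 normalised CPM in UPF3-KO and 87.2, 65.8 and 61.3 in WT. There the groups overlapped, UPF3-KO replicate 1 was the highest of all, and the log2 change was 0.47 (SE 0.27, adjusted p = 0.664).

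The other control gene, OPI1, which encodes the repressor, had 48.5, 64.8 and 66.8 normalised CPM over the labelled libraries in UPF3-KO and 75.4, 73.1 and 78.9 in WT. Every UPF3-KO culture lay below every WT culture, with averages of 60.0 ± 10.05 and 75.8 ± 2.91 (SD, n = 3 each). The log2 change was −0.34 (SE 0.18, edgeR adjusted p = 0.514), which did not pass the threshold. ITR1, the main inositol transporter, showed the same order, with 374, 420 and 446 normalised CPM in UPF3-KO and 542, 485 and 496 in WT. Its log2 change was −0.30 (SE 0.16, adjusted p = 0.522). So the groups did not overlap for 3 of 9 members, INO4 above and OPI1 and ITR1 below, where 15.6% of all genes had every UPF3-KO culture above every WT culture and 7.22% had the reverse. For ITR1 the order held early in the chase. At chase points 1 to 3 its UPF3-KO and WT cultures were apart, and at points 4 to 6 and in the unlabelled libraries they overlapped. OPI1 cultures were apart at points 1, 2, 3, 5 and 6 and overlapped at point 4 and without label. The share of all genes apart at single chase points was not computed.

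The 4 enzymes of the phosphatidylcholine route and the choline transporter had overlapping groups over the labelled libraries. At chase points 1 and 3 alone every UPF3-KO culture lay below every WT culture for the choline transporter, HNM1. CHO1, the phosphatidylserine synthase, had a log2 change of −0.17 (SE 0.34) and PSD1, the mitochondrial phosphatidylserine decarboxylase, 0.20 (SE 0.35). CHO2, which adds the first methyl group to phosphatidylethanolamine, had −0.00 (SE 0.27), and OPI3, which adds the later ones, 0.27 (SE 0.34). HNM1, the choline and ethanolamine transporter, had −0.30 (SE 0.19). The edgeR test called none of these 5 genes (adjusted p at or above that of HNM1, 0.63). Within same-numbered pairs, CHO1 and HNM1 were lower in UPF3-KO in all 3, as were ITR1 and OPI1, and OPI3 was higher in all 3, as was INO4; 32.2% of all genes were lower and 30.0% higher in all 3. With the replicate block, edgeR gave adjusted p values of 0.213 for CHO1, 0.0897 for HNM1 and 0.0684 for OPI3, and called none of the 5 enzyme and choline transporter genes. Replicate 1 stood apart in several of them. CHO1 had 404 normalised CPM in UPF3-KO replicate 1 and 456 in WT replicate 1, against 232 to 270 in the other 4 cultures. Between replicates 2 and 3 of both genotypes, OPI3 (0.45, adjusted p = 0.0343) and PSD1 (0.38, adjusted p = 0.0164) were called higher as well as INO1 and INO4. The median log2 change of the 9 members was −0.00, against −0.01 for all 5555 genes.

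**Figure D2:**
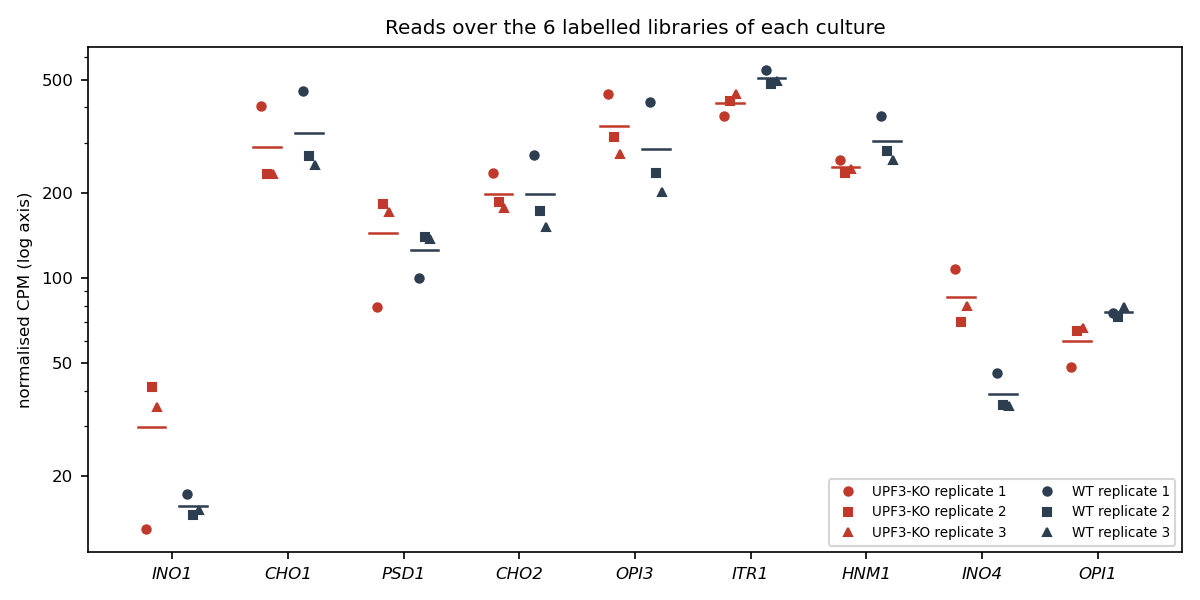
Normalised CPM (log axis) of the 9 genes from all 6 labelled libraries of a culture together, with UPF3-KO (red) left of WT (dark blue). Points are cultures (n = 3 per genotype) and bars are means. The INO4 groups are apart, at 85.7 and 39.1, and UPF3-KO replicate 1 is the lowest INO1 point.

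Reads of most members were lower once label was present, in both genotypes. INO1 changed most. At the first chase point, the end of labelling, it had 8.18, 39.9 and 32.0 normalised CPM in UPF3-KO, against 121, 98.2 and 67.9 in the unlabelled libraries of the same cultures. In WT it had 20.1, 16.0 and 15.8 at the first chase point, against 87.2, 65.8 and 61.3 without label. The labelled value was below the unlabelled one in all 6 cultures, as for 7.33% of all genes, and the 2 sets did not overlap. Within cultures the log2 change was −3.89, −1.30 and −1.09 in UPF3-KO and −2.12, −2.04 and −1.96 in WT. INO1 reads fell by 2.02 on the log2 scale (SE 0.31; edgeR with culture as a block, adjusted p = 0.00806), to 24.6% of the unlabelled level.

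OPI3 fell next, by 1.13 on the log2 scale (SE 0.12, adjusted p = 0.00252). It had 527, 315 and 275 normalised CPM at the first chase point in UPF3-KO, against 897, 680 and 626 without label. In WT it had 467, 255 and 216, against 973, 606 and 566 without label. All 6 cultures were lower with label, as for 7.33% of all genes. The calls of INO1 and OPI3 held in each of the 6 fits that left out 1 culture. Without the culture block the INO1 call held (adjusted p = 0.0338) and the OPI3 call was lost (adjusted p = 0.115).

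Another 4 members fell by smaller steps. PSD1 fell by 0.74 (SE 0.17, adjusted p = 0.0412), ITR1 by 0.73 (SE 0.17, adjusted p = 0.0388), CHO2 by 0.55 (SE 0.13, adjusted p = 0.0404) and CHO1 by 0.49 (SE 0.13, adjusted p = 0.0499), all log2 changes from edgeR. CHO1, CHO2 and PSD1 were lower in all 6 cultures, as were 7.33% of all genes, and ITR1 in 5, with WT replicate 1 at 0.01. These calls were sensitive to single cultures. CHO2, ITR1 and PSD1 were lost without UPF3-KO replicate 2 or 3 or WT replicate 2 or 3, and CHO1 in those fits and without WT replicate 1. INO4 (−0.37, SE 0.12, adjusted p = 0.0906), HNM1 (−0.29, SE 0.14, adjusted p = 0.25) and OPI1 (−0.16, SE 0.14, adjusted p = 0.556) did not pass. DESeq2 called 7 members lower, the same 6 and INO4, in a fit that called 252 of 5560 genes lower. Between replicates 2 and 3 of both genotypes all 9 were called lower, in a fit that called 43.9% of all genes.

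Thus 6 of the 9 members were called lower with label and 0 higher, where 1.95% of the 5540 genes tested were called lower and 3.99% higher. The median log2 change of the 9 members was −0.55 and that of all genes was −0.01. All 9 values were below 0. Of the 33 other genes of phospholipid and fatty acid synthesis and turnover, 0 were called by edgeR in this comparison, and their median log2 change was 0.06. The members and this list were chosen with earlier results of these data known, so the contrast of shares is a description. The gene downstream on the map was measured for 6 of the 9 members, and not for CHO1, PSD1 and INO4. VPS35, downstream of INO1 on the same strand, had a log2 change of −0.01 (adjusted p = 0.966), and NPA3, downstream of OPI3, had 0.28 (adjusted p = 0.302). MTR3, which ends towards CHO2, had 0.51 (adjusted p = 0.0678), and PUF6, downstream of ITR1, 0.51 (adjusted p = 0.179). CPM are relative to the other transcripts of a library. The unlabelled and labelled libraries differ in 4TU and in any handling that went with it, which cannot be told apart.

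**Figure D3:**
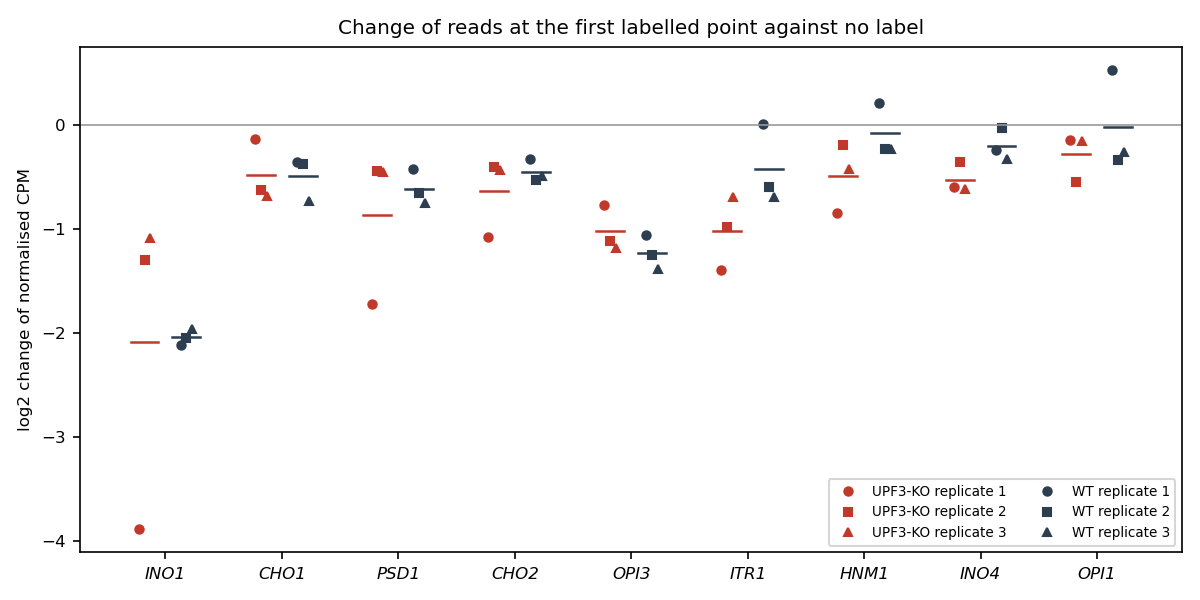
Log2 change of normalised CPM at the first chase point against the unlabelled library of the same culture, for the 9 genes, with UPF3-KO (red) left of WT (dark blue). Points are cultures (n = 3 per genotype), bars are means and the grey line is no change. INO1 runs between −3.89 and −1.09 and OPI3 between −1.39 and −0.77.

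The genotypes were not shown to differ in this change. Of the 9 members, 0 passed the test of the difference between genotypes (edgeR interaction, lowest adjusted p = 0.946), 0 had an unadjusted p under 0.05, and DESeq2 called 0. Among all 5540 genes edgeR called 0%. The difference of the INO1 log2 changes was 0.06 (SE 0.63), an interval wide enough to hold a difference of more than 1 in either direction. Without UPF3-KO replicate 1 the difference was 0.85 (SE 0.18, unadjusted p = 0.0021, adjusted p = 0.984), as UPF3-KO replicates 2 and 3 fell less than the WT cultures.

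During the chase INO1 stayed low. It had 14.3, 46.9 and 40.6 normalised CPM at the fifth chase point in UPF3-KO and 19.8, 18.1 and 21.6 in WT, all under the lowest unlabelled value of its genotype. At the sixth chase point it had 11.1, 24.4 and 24.2 in UPF3-KO and 8.31, 12.1 and 11.3 in WT. Its log2 change against the first chase point was 0.34 (SE 0.12, edgeR adjusted p = 0.067) at the fifth point and −0.48 (SE 0.20, adjusted p = 0.139) at the sixth.

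By the fifth chase point, 2 of the 9 members had changed against the first, 1 in each direction, where 12% of the 5542 genes tested were called higher and 11.2% lower, so the share of members is close to that of all genes. HNM1 was higher by 0.47 (SE 0.13, edgeR adjusted p = 0.0305) and lay above its first point in all 6 cultures, by 1.21, 0.26 and 0.32 in UPF3-KO and by 0.30, 0.48 and 0.18 in WT. INO4 was lower by a log2 change of −0.30 (SE 0.09, adjusted p = 0.0356), also in all 6 cultures. OPI1 (0.47, SE 0.16, adjusted p = 0.0527) and CHO1 (0.28, SE 0.10, adjusted p = 0.057) were higher in all 6 cultures and missed the threshold. Over all genes, 15.2% were higher and 14.7% lower in all 6 cultures. The HNM1 call was lost in 5 of the 6 fits that left out 1 culture (all but UPF3-KO replicate 1) and the INO4 call in 4 (all but UPF3-KO replicate 1 and WT replicate 1). With replicates 2 and 3 of both genotypes only, 6 members were called, where 42.9% of all genes were.

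At the sixth chase point, 1 of 9 members was called against the first, where 6.14% of the 5538 genes tested were called higher and 6.55% lower. CHO1 had 309, 198 and 183 normalised CPM at the sixth point in UPF3-KO, against 517, 220 and 225 at the first. In WT it had 317, 227 and 219 at the sixth point, against 519, 298 and 262 at the first. All 6 cultures fell, and the log2 change was −0.43 (SE 0.12, edgeR adjusted p = 0.0364). The call was lost without UPF3-KO replicate 3 or WT replicate 1, 2 or 3. OPI3 had −0.40 (SE 0.12, adjusted p = 0.0594) and was lower in all 6 cultures. Over all genes, 9.61% were lower in all 6 cultures.

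In neither chase comparison was a difference between the genotypes called for any member (edgeR interaction, lowest adjusted p = 0.809 at the fifth and 0.879 at the sixth point). At both points 0 members had an unadjusted p under 0.05 and DESeq2 called 0. edgeR called 0.0361% of all genes at the fifth point and 0% at the sixth. All 9 differences, UPF3-KO minus WT, were above 0 at both points, with medians of 0.23 and 0.27 against 0.04 and 0.04 for all genes. The 33 other genes of phospholipid and fatty acid metabolism had a median of 0.25 at the fifth point, with 26 above 0, and of 0.08 at the sixth, with 18 above 0. Without UPF3-KO replicate 1, whose first chase library was low in INO1, PSD1, ITR1, HNM1 and OPI1, 6 were above 0 at the fifth point and 7 at the sixth.

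The decay of T>C label was read from the same libraries. At the first chase point the members carried between 1.95% and 3.78% converted T above the unlabelled rate, and the rate fell over the chase for all 9. Labelling at the first point did not differ between genotypes for any member by the test (limma, 0 of 9 called, 0% of the 5292 genes tested), and 1 member, OPI1, had an unadjusted p under 0.05, as did 4.33% of all genes. OPI1 carried 2.81%, 2.23% and 2.92% converted T in UPF3-KO and 3.78%, 2.99% and 3.52% in WT. The groups did not overlap, as for 8.69% of all genes in this direction, and the log2 difference was −0.37 (SE 0.15, adjusted p = 0.798). PSD1 groups did not overlap either, in the same direction and by a narrow margin. PSD1 carried 2.47%, 2.546% and 2.45% in UPF3-KO and 3.29%, 2.548% and 2.69% in WT. Its log2 difference was −0.18 (SE 0.12, limma adjusted p = 0.798).

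**Figure D4:**
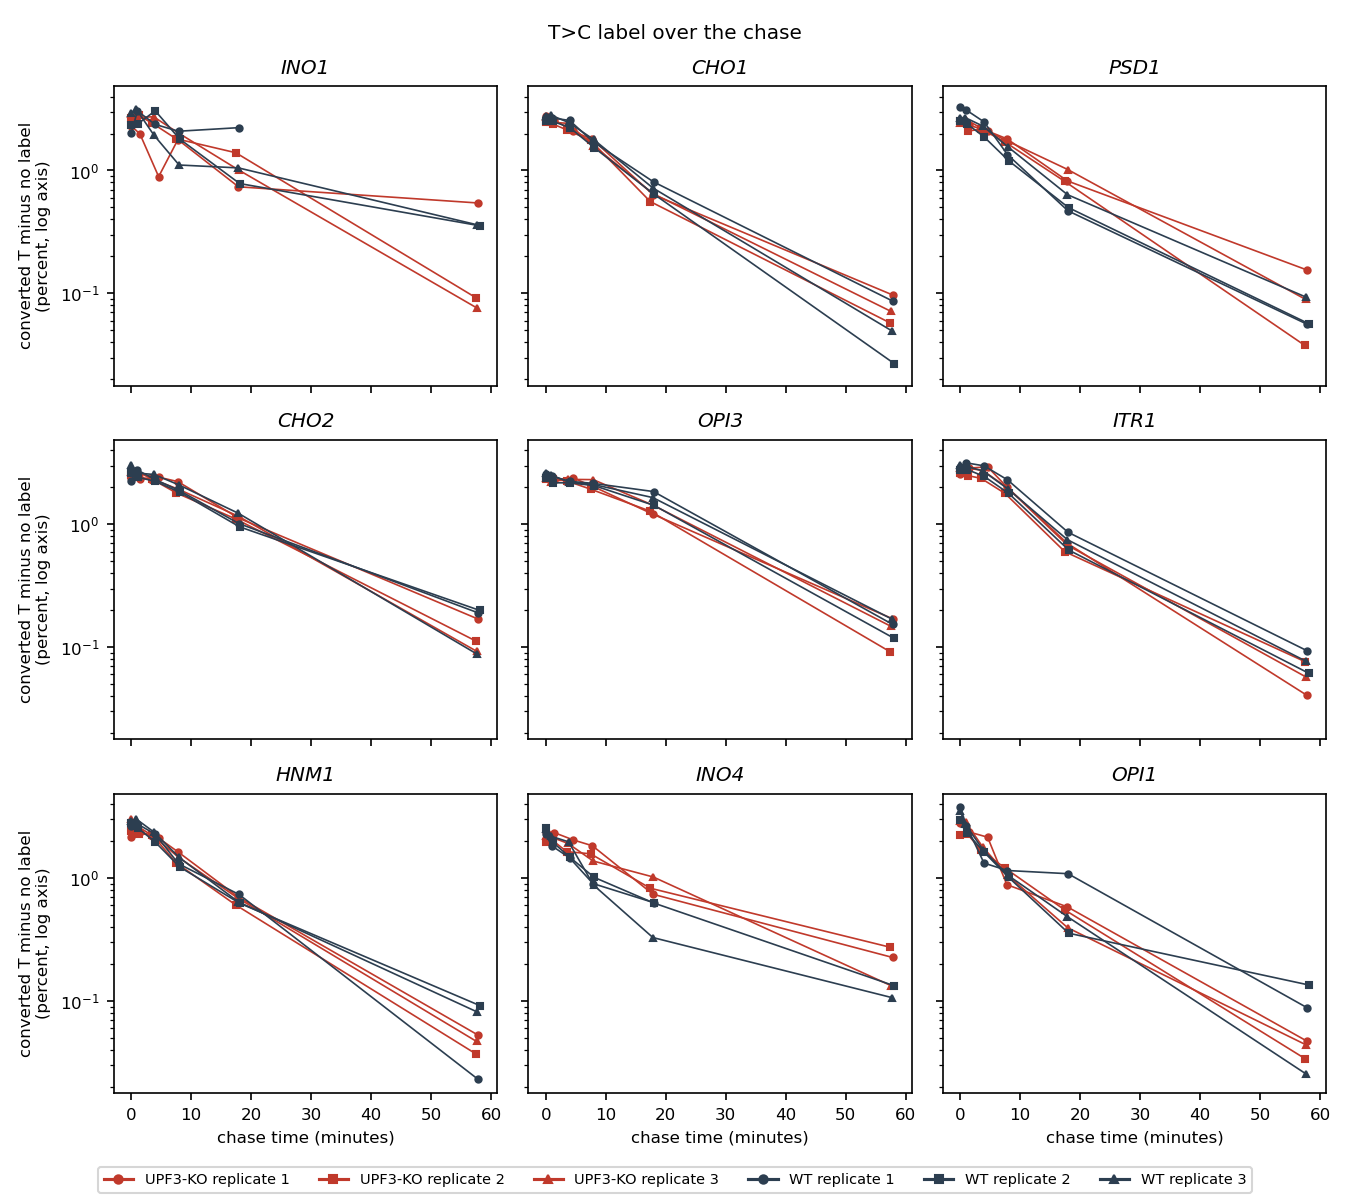
Converted T above the unlabelled rate, in percent (log axis), against chase time in minutes for the 9 genes, by culture (UPF3-KO red, WT dark blue, n = 3 each). Points at or below the unlabelled rate, such as INO1 and INO4 in WT replicate 1 at the last time, are not drawn. At the fourth chase point the INO4 and PSD1 curves of UPF3-KO lie above those of WT.

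Half-lives from a line through the log rates gave 0 of the 9 members called (limma, lowest adjusted p = 0.863, 0 with an unadjusted p under 0.05), where 0% of the 5333 genes tested were called. INO4 had 16.5, 19.9 and 14.2 minutes in UPF3-KO and 9.77, 14.1 and 12.3 in WT. The groups were apart by a narrow margin, as for 7.54% of all genes in this direction, and the log2 difference was 0.49 (SE 0.21, adjusted p = 0.863). WT replicate 1 was below the unlabelled rate at the last point, so its INO4 line rests on the other 5. Without background subtraction the INO4 groups overlapped, with 14.7 minutes in UPF3-KO replicate 3 and 15.1 in WT replicate 2. For INO1 the line spread widely, with 32.1, 11.9 and 10.8 minutes in UPF3-KO and 128, 19.1 and 19.5 in WT, where WT replicate 1 had 82 reads and 0 converted T at the last point, so that its line rests on the other 5. The other 7 genes lay between 8.36 and 15.5 minutes in all cultures.

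A single exponential fitted to the rates themselves, which weighs the early points more, set INO4 further apart. It gave 13.0, 16.7 and 14.3 minutes in UPF3-KO, against 7.45, 7.22 and 6.37 in WT. The UPF3-KO average of 14.7 ± 1.85 minutes stood against 7.01 ± 0.57 in WT (SD, n = 3 each), a log2 difference of 1.06 (SE 0.15, limma adjusted p = 0.0629). That did not pass the threshold, and the adjusted p was between 0.0748 and 0.195 in the fits that left out 1 culture. The label shows the same order directly. At the fourth chase point INO4 kept 76.8%, 80.7% and 62.3% of its first label in UPF3-KO and 39.7%, 39.6% and 35.1% in WT. The median gene kept 66.7%, 60.6% and 58.0% in UPF3-KO and 55.0%, 48.6% and 51.4% in WT, also with no overlap, and 19.3% of genes had every UPF3-KO culture above every WT culture in this share. Within WT, between 20.6% and 37.5% of all genes had a shorter half-life than INO4, and within UPF3-KO between 63.4% and 88.8%.

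PSD1 followed the same pattern by this fit. It had 12.3, 11.8 and 13.5 minutes in UPF3-KO and 6.70, 7.65 and 9.27 in WT, with no overlap, and a log2 difference of 0.68 (SE 0.17, adjusted p = 0.137). At the fourth chase point it kept 73.3%, 66.9% and 70.7% of its first label in UPF3-KO and 40.9%, 47.1% and 57.7% in WT. These shares are relative to a first label that was lower in every UPF3-KO culture than in every WT culture. By the line, PSD1 half-lives overlapped, at 14.3, 9.47 and 11.8 minutes in UPF3-KO and 9.74, 10.5 and 11.6 in WT. OPI1 had 6.22, 8.12 and 5.47 minutes by the nonlinear fit in UPF3-KO and 4.35, 5.28 and 4.65 in WT (log2 0.46, SE 0.22, adjusted p = 0.385), also with no overlap. Its label left at the fourth chase point overlapped, at 31.4%, 53.9% and 36.0% in UPF3-KO and 30.5%, 33.9% and 29.9% in WT. At the fifth chase point INO4 and PSD1 again kept more label in every UPF3-KO culture than in every WT culture. OPI3 and CHO1 kept less there, also with no overlap. OPI3 kept 49.9%, 54.8% and 59.8% in UPF3-KO and 72.3%, 60.3% and 63.5% in WT. CHO1 averaged 23.15% in UPF3-KO and 26.96% in WT. Groups of the other members overlapped. The median gene kept at least 26.97% in UPF3-KO and at most 24.92% in WT. By the line the OPI1 groups overlapped and the log2 difference was −0.16 (SE 0.20). Over all genes, 21.8% had every UPF3-KO half-life above every WT one by the nonlinear fit and 1.16% the reverse; by the line the shares were 7.54% and 4.50%.

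The nonlinear fit called 20 of the 5428 genes tested, all higher, which is 0.368%. It called 0 of the 9 members, and 2, INO4 and PSD1, had an unadjusted p under 0.05, as did 15.4% of all genes. The median of all genes was higher in UPF3-KO by 0.16. Without the last chase point the line also gave 0 members called, with 0.0568% of all genes higher. There 3 members, INO4 (0.68), PSD1 (0.68) and OPI3 (−0.58), had an unadjusted p under 0.05, as did 10.8% of all genes.

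The order of the members by half-life depended on the fit. By the nonlinear fit OPI3 mRNA was the longest lived of the 9 in 5 of 6 cultures, with INO1 ahead in WT replicate 1. OPI3 had 18.4, 18.3 and 22.5 minutes in UPF3-KO and 26.1, 21.8 and 21.8 in WT, and between 87.7% and 98.2% of all genes had a shorter half-life in the same culture. By the line OPI3 was the longest lived in 0 of 6 cultures, where INO1 was in 4 and INO4 in 2. By the nonlinear fit OPI1 was the shortest lived in all 6 cultures, and between 3.28% and 32.1% of genes were shorter. By the line OPI1 was the shortest in 2 of 6, and in WT replicate 2 it had 13.3 minutes, with 75.0% of genes shorter. By the nonlinear fit CHO2 had 17.6, 14.5 and 14.4 minutes in UPF3-KO and 15.5, 13.6 and 14.5 in WT, and between 81.0% and 87.5% of genes were shorter. The transporters and CHO1 lay between 7.58 and 12.6 minutes in all cultures by that fit.

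**Figure D5:**
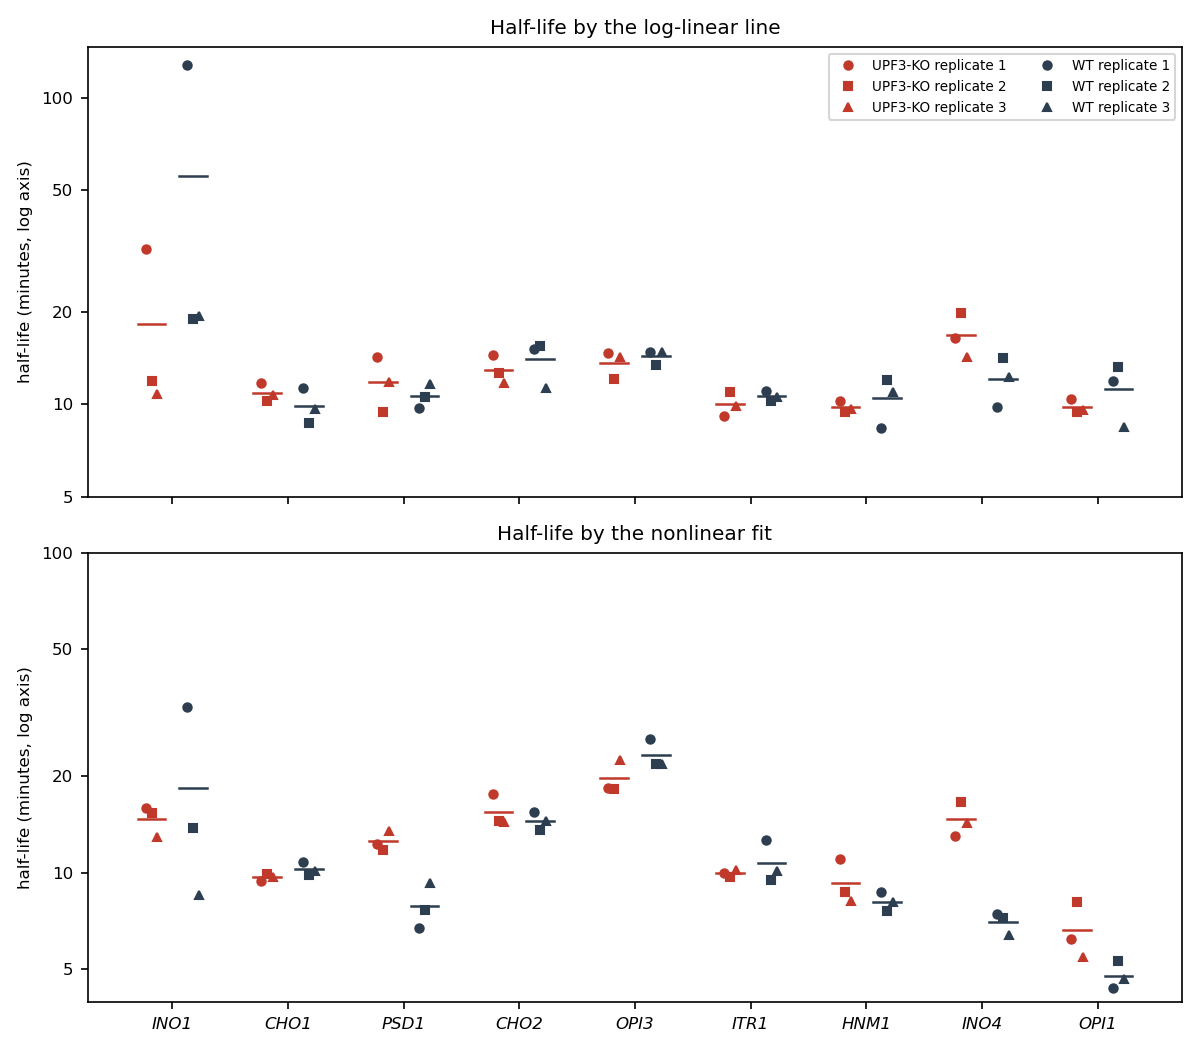
Half-lives in minutes (log axis) of the 9 genes by the log-linear line (top) and by the nonlinear fit (bottom), with UPF3-KO (red) left of WT (dark blue). Points are cultures (n = 3 per genotype) and bars are means. INO4 is 14.7 and 7.01 minutes on average by the nonlinear fit, and INO1 in WT replicate 1 is 128 minutes by the line.

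Of the 33 other genes of phospholipid and fatty acid metabolism, 2 were called higher in UPF3-KO over the labelled libraries and 0 lower, a share close to the 5.76% of all genes. GIT1, which takes up glycerophosphoinositol, had a log2 change of 2.81 (SE 0.21, edgeR adjusted p = 0.00204), and EKI1, an ethanolamine kinase, 0.99 (SE 0.18, adjusted p = 0.0289). Both were also called in the unlabelled libraries (2.56 and 1.12), where 3.23% of all genes were called higher. INO2, the partner of Ino4, was not among the called genes. By the fifth chase point 4 were called higher and 2 lower than at the first, where 12% of all genes were called higher and 11.2% lower. The 4 with the lowest p were GPT2 (0.69), an acyltransferase for glycerol-3-phosphate, PAH1 (0.54), the phosphatidate phosphatase, DPP1 (−0.46), a lipid phosphatase, and INM1 (−0.82), an inositol monophosphatase. OLE1, the fatty acid desaturase, was the 1 gene called at the sixth point (−1.24, edgeR adjusted p = 0.000446), where 6.14% of all genes were called higher and 6.55% lower. In half-life by the line 0 were called, as were 0% of all genes.

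Of all genes, the member PSD1 followed INO1 most closely in reads over the 42 libraries, at a root mean square distance of 0.668 on the log2 scale between centred profiles. The nearest genes outside the 9 members were DCS2, RTN2 and FRE1, at 0.668, 0.693 and 0.694, so PSD1 and DCS2 are level to 3 digits. The median distance of the 5466 genes measured deeply enough was 1.05. Of the other members, OPI3 at 0.82 and ITR1 at 0.83 came after PSD1. HNM1 was farthest at 1.05. These distances are a description over libraries that share cultures, and they carry the difference of replicate 1 from the others.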

How the data were processed

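SLAM-seq 3′-end libraries of BY4741 upf3Δ and BY4741 were used, with a deposited table for each culture that holds its 7 libraries. The authors' counts, per the file headers, are SlamDunk output per gene window: reads, T>C reads, multi-mapping reads, and T bases covered and converted. The deposited conversion rate is a fraction, equal to converted over covered T within 1e-09 in every gene and library. Libraries were QuantSeq 3′ FWD from alkylated total RNA, per the labels' protocols, and the build is R64, per the submitters' processing notes. Tool settings, versions and strand use: not given in the sources used here. Reads of facing genes may therefore not be separated. Of 5560 identifiers, 5558 matched the RefSeq gene table, which gave symbols and coordinates.

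Counts were tested with edgeR 4.0.16 (filterByExpr, TMM, glmQLFit, glmQLFTest), 1 value per culture. The comparisons of libraries within cultures carried culture as a block, with an interaction term for genotype. Label was the conversion rate minus that of the unlabelled library of the culture. Half-life was the inverse slope of −log2 rate on time, weighted by reads, for genes with a mean of 20 reads and 3 points above background. Log2 values were tested with limma 3.58.1 (trend, robust). All p values are two-sided and adjusted by Benjamini-Hochberg over all genes tested, with a threshold of 0.05. SE of edgeR changes are those implied by the F test. Methods were run on simulated data in which same-numbered cultures of the genotypes do not deviate together. The simulation therefore does not cover the shared deviation seen in the reads here. Errors are the spread between cultures.

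Same-numbered cultures of the genotypes deviated together in reads. The correlations across genes were 0.939, 0.910 and 0.866 in the labelled sums and 0.799, 0.800 and 0.579 without label. Between UPF3-KO replicate 2 and WT replicate 3 they were 0.823 and 0.522, and between UPF3-KO replicate 3 and WT replicate 2 0.790 and 0.511. The correlations thus mainly set replicate 1 apart and do not settle whether replicates 2 and 3 are paired by number. Blocked values are given where they matter. Same-numbered cultures did not deviate together in half-life (0.057, 0.030, 0.024) or first label (0.068, 0.039, 0.031).

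Alternatives were DESeq2 1.42.0, its size factors within edgeR, no filter on low counts, the replicate block or none, each culture left out, replicates 2 and 3 only, the labelled sums without 1 library, a minimum of 100 reads, a nonlinear exponential fit (half-lives searched between 0.5 and 500 minutes), the line without the last point, no background subtraction, T>C reads in place of the rate, and rate times CPM. Leaving out cultures in the nonlinear fit was added after seeing the data. The 9 members are named throughout whatever their values, as are called genes of a list of 33 (at most 4 per comparison by lowest p) and the 3 genes nearest to INO1 (log2 of CPM plus 1, a mean of 20 reads). The members and lists were chosen with earlier results of these data known. Sequences, promoters included, were not analysed here. Analyses used R 4.3.3 with version 1.17.8 of data.table, Python 3.11.15, pandas 2.3.3, numpy 2.4.6 and matplotlib 3.10.9.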

Additional observations from a re-analysis of the deposited data

Results flagged for a closer look

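The 6 per-culture log2 changes were checked for 9 genes in 3 comparisons. In 9 of these 27 checks, 1 culture lay farther from the others than Dixon's test allows at its 95% level. For a single check chance gives about 1 in 20. The 27 checks are not separate draws, since all 3 comparisons use the first chase library of each culture. The share of all genes flagged in this way was not computed. In 8 of the 9 flagged checks the culture was UPF3-KO replicate 1, and all 8 are changes that use its first chase library. Against no label, UPF3-KO replicate 1 had −3.89 for INO1 (others −2.12 to −1.09), −1.08 for CHO2 (others −0.53 to −0.33) and −1.72 for PSD1 (others −0.76 to −0.43). At the fifth chase point against the first it had 1.55 for ITR1 (others −0.18 to 0.38), 1.46 for OPI1 (others 0.15 to 0.38), 0.92 for PSD1 (others −0.13 to 0.26) and 1.21 for HNM1 (others 0.18 to 0.48). At the sixth point it had 1.01 for OPI1 (others −0.15 to 0.16). The 1 other was UPF3-KO replicate 2, with 0.18 for OPI3 at the fifth point (others −0.24 to −0.11). That first chase library also had the second lowest median correlation to its own culture of the 42 libraries, 0.938; its part in these values was not tested.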

How the results depend on the processing

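The number of members called depended on the cultures and the block. For reads over the labelled libraries it was 1, against 0 with DESeq2 size factors, 4 with replicates 2 and 3 only (27.5% of all genes) and 0 to 2 with 1 culture left out. For the unlabelled reads it was 0, against 1 (INO4) with DESeq2 (367 of 5559 genes called). It was also 1 (INO4) with the replicate block (15.4% of all genes) and with replicates 2 and 3 only (14.2%). For the first chase point against no label it was 6, against 1 without culture as a block, 9 with replicates 2 and 3 only (where 43.9% of all genes were called) and 2 to 7 with 1 culture left out. For the fifth point it was 2, against 0 without culture as a block, 6 with replicates 2 and 3 only (42.9% of all genes) and 0 to 4 with 1 culture left out. For the sixth it was 1, against 3 with DESeq2 (972 of 5560 genes called) and 2 without the filter on low counts (677 of 5560). It was 0 with DESeq2 size factors, 0 without culture as a block and 0 to 2 with 1 culture left out. Over all genes, fits with 1 culture left out called 50 to 474 in the labelled sums. They called 39 to 1452 genes at the first chase point against no label, 632 to 2146 at the fifth and 340 to 891 at the sixth. The replicate block raised the calls over all genes from the labelled sums to 1527, against 320 without it. In half-life and first label, where same-numbered cultures did not deviate together, it left 0 called. The other counts of members, all 0, were 0 under every alternative tried. The cause of these shifts was not tested.

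Among the results and alternatives run, sign changes were confined to values that missed the threshold. In reads over the labelled libraries CHO2 was 0.035 with the replicate block, 0.18 with replicates 2 and 3 only and 0.045 without the library at chase point 3 of UPF3-KO replicate 1. With 1 culture left out, CHO1 ran between −0.48 and 0.16, CHO2 between −0.16 and 0.29 and PSD1 between −0.0015 and 0.50. In the unlabelled reads the ranges were −0.059 to 0.39 for OPI3, −0.40 to 0.11 for CHO1, −0.20 to 0.55 for CHO2 and −0.18 to 0.12 for ITR1, which was 0.0025 with replicates 2 and 3 only. At the fifth point CHO2 ran between −0.0037 and 0.080. At the sixth OPI1 ran between −0.083 and 0.15 and was −0.081 with replicates 2 and 3 only, and PSD1 ran between −0.13 and 0.017. In half-life by the line, OPI3 ran between −0.13 and 0.014, PSD1 between −0.0031 and 0.29 (−0.065 with replicates 2 and 3 only) and HNM1 between −0.23 and 0.028. The nonlinear fit turned CHO1 to −0.085, CHO2 to 0.087, OPI1 to 0.46 and HNM1 to 0.18, and the line without the last point gave −0.15 for CHO1, 0.14 for CHO2 and 0.065 for HNM1. ITR1 was 0.0047 without background subtraction and 0.0077 for rate times CPM. By the nonlinear fit with 1 culture left out, INO1 ran between −0.54 and 0.44, CHO2 between −0.0077 and 0.14 and ITR1 between −0.18 and 0.027. In first label INO1 ran between −0.019 and 0.26, CHO1 between −0.057 and 0.035 (also 0.035 with T>C reads) and CHO2 between −0.17 and 0.048. Depth limits INO1 most, with 82 reads in its shallowest library.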
